A study of Sus scrofa with 12 samples.

Results

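The miR-23, miR-24 and miR-27 rows of small RNA libraries from pig testis are described here. Every listed miRNA was taken whose name is miR-23, miR-24 or miR-27, with or without the pig prefix ssc and with any paralogue letter or arm, which gave 17 of the 1452 rows of the expression table. Of these, 8 carry pig names and 9 are unprefixed miRBase names, in which the authors use the endings x, y and z. All 17 had at least 1 count in each of the 12 libraries. The libraries came from Hezuo (HZ) boars, a small native Chinese breed, and Landrace (LC) boars, a large Western breed, with 3 libraries in each of 4 groups: Ha (HZ, 30 days old), Hb (HZ, 120 days), La (LC, 30 days) and Lb (LC, 120 days). The testes were obtained by castration, and RNA was prepared from pools. The study's methods name 3 boars for each breed and age. The caption of its RT-qPCR figure, which also plots sequencing TPM, names 3 biological replicates. How the boars and pools map to the libraries was not given in the sources used here, and p-values measure the spread between libraries, which may be technical. Positive differences mean a higher level in the group named last.

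These miRNAs are made as trios. Mammals carry a paralogous pair of clusters, each with a miR-23, a miR-27 and a miR-24 hairpin close together, from which a shared primary transcript can be cut by Drosha and Dicer. The mature strand is loaded onto Argonaute and recognises targets mainly through its seed. The clusters are known for high expression in endothelium and for roles in vessel growth, in fat cell differentiation (miR-27) and in the cell cycle (miR-24). The mature miR-24-3p is the same from either cluster, so its reads cannot be assigned to one of them, whereas the a and b forms of miR-23 and miR-27 can be told apart near the 3′ end.

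The 5 abundant mature forms are printed because the comparison of clusters rests on how little they differ. Sequences are as deposited, 5′ to 3′ in DNA letters, with the seed (bases 2 to 8) in capitals.
ssc-miR-23a: aTCACATTgccagggatttcc
ssc-miR-23b: aTCACATTgccagggattacca
ssc-miR-27a: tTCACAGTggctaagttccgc
ssc-miR-27b-3p: tTCACAGTggctaagttctgc
ssc-miR-24-3p: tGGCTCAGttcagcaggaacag
Counting from 1 at the 5′ end, miR-23a and miR-23b differed by T19A over the 21 bases they share, and miR-27a and miR-27b-3p by C19T. Thus each pair shares its seed and is separated by 1 base, beside the longer 3′ end of miR-23b. The number of mismatches allowed when tags were matched was not given in the sources used here.

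The next set is printed because each sequence is an abundant form above with 2 more bases at its 3′ end, as a script found from the listed sequences.
miR-23-z: aTCACATTgccagggattaccact
miR-23-y: aTCACATTgccagggatttccat
miR-27-y: tTCACAGTggctaagttctgcat
miR-24-z: tGGCTCAGttcagcaggaacagtt
In this order they extend miR-23b, miR-23a, miR-27b-3p and miR-24-3p. In the tables these pairs are separate rows, although the 2 forms of a pair share a seed and the extra bases lie at the tail.

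The 5p forms that tell the miR-24 hairpins apart are printed last, since miR-24-3p itself cannot do so.
ssc-miR-24-1-5p: gTGCCTACtgagctgaaacacagt
ssc-miR-24-2-5p: gTGCCTACtgagctgatatcagt
They share a seed and differ in the second part of the sequence.

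In the RefSeq annotation of Sscrofa11.1, the A cluster lies on chromosome 2 and spans 408 bases. It holds MIR23A (chr2:65308117-65308186), MIR27A (chr2:65308294-65308375) and MIR24-1 (chr2:65308453-65308524), and lies within the bounds of no other annotated gene. The B cluster lies on chromosome 10 and spans 860 bases. It holds MIR24-2 (chr10:27079417-27079496), MIR27B (chr10:27079963-27080042) and MIR23B (chr10:27080197-27080276), all within the bounds of C10H9orf3. The table used gives gene bounds and no exons, so whether they are intronic was not determined.

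The summed counts of the listed miRNAs were 6520197 to 16874633 per library, and the TMM scaling factors 0.694 to 1.2. The lowest factor was that of Hb replicate 2 and the highest that of Hb replicate 1, so values that rest on Hb are also given without them where that changes a call or moves a count or a value much. The testis markers miR-202-5p and miR-202-3p summed to 9575 to 24312 TPM (counts scaled to the library total, with no division by length) in the 12 libraries. The 3 listed germ cell rows of 7 sought, all of the miR-34 and miR-449 kind that rises with meiosis, summed to at most 77.9 TPM in the 30-day libraries and at least 2590 TPM in the 120-day libraries.

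miR-27b-3p was the leading member everywhere. It was the 3rd to the 9th most abundant listed miRNA of its library and held 66.4 to 78.6% of the members' counts. Its level was 55855, 55638 and 62183 TPM in Ha, 43435, 42689 and 43435 TPM in Hb, 54785, 53420 and 51203 TPM in La, and 28701, 32543 and 33519 TPM in Lb. No groups overlapped: every La library lay below every Ha library, every Hb library below every La library, and every Lb library below every Hb library.

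miR-27a, its partner from the A cluster, was far lower. It reached 3022, 2954 and 2533 TPM in Ha, 2702, 3700 and 3052 TPM in Hb, 2861, 2991 and 2970 TPM in La, and 2874, 2775 and 2606 TPM in Lb. Neighbouring groups in the order of means (Hb, La, Ha and Lb) overlapped. The ratio of mean TPM of miR-27b-3p to miR-27a was 20.4 at 30 days and 13.7 at 120 days in HZ boars, and 18.1 and 11.5 at these ages in LC boars.

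miR-23a and miR-23b, in contrast, stood at like levels. miR-23b reached 2869, 3357 and 3165 TPM in Ha, 2914, 2467 and 3442 TPM in Hb, 2895, 2953 and 3014 TPM in La, and 1884, 2100 and 2006 TPM in Lb, where all 3 libraries lay below the other 9. Every Lb library lay below every La library for 14% of all rows, and below every Hb library for 7.96%. miR-23a reached 2437, 2648 and 2068 TPM in Ha, 2650, 2172 and 3250 TPM in Hb, 2515, 2606 and 2752 TPM in La, and 2774, 2699 and 2332 TPM in Lb, with overlap between all groups.

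miR-24-3p, the form that either cluster can give, was second among the members. It reached 6678, 7740 and 6653 TPM in Ha, 8499, 12344 and 7978 TPM in Hb, 6217, 7366 and 6847 TPM in La, and 5741, 4830 and 5526 TPM in Lb. Its highest libraries were those of Hb, all above the other 9, and its lowest those of Lb, all below the other 9. Every Hb library lay above every Ha library for 23% of all rows, and every Lb library below every La library for 14%. The highest value of miR-24-3p was that of Hb replicate 2.

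**Figure D1:**
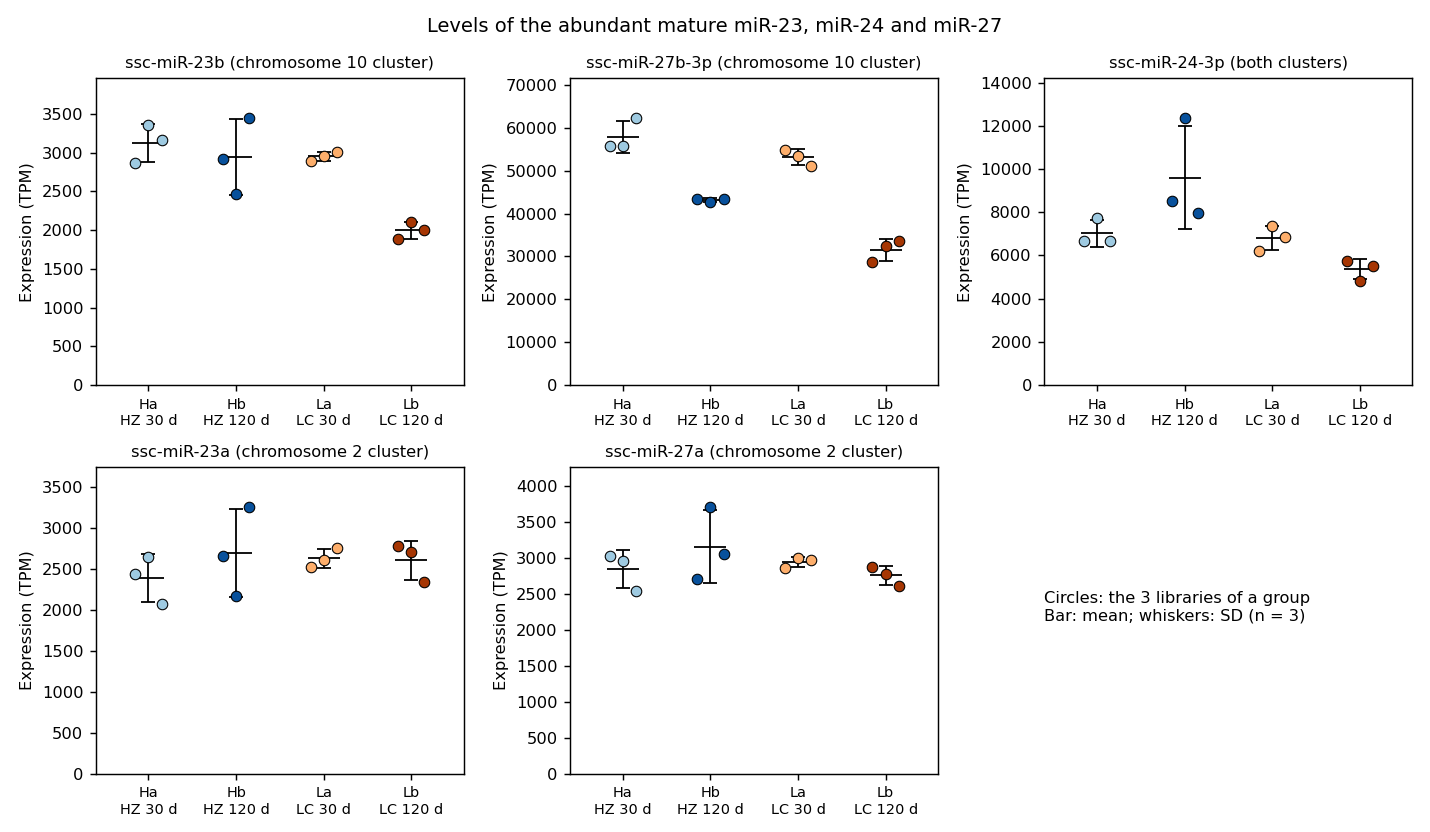
Level of the 5 abundant forms in TPM, each in a panel with its own linear axis from 0, with a circle per library, a bar at the mean and whiskers of 1 SD in each group of 3. miR-27b-3p, on an axis that reaches far higher than the others, goes from a mean of 53136 TPM in La to 31588 TPM in Lb, while miR-23a stays between 2384 and 2691 TPM in the group means.

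The 17 rows took 8.53% ± 0.304 (Ha) and 7.13% ± 0.0972 (Hb) of all listed counts in HZ boars, and 7.9% ± 0.145 (La) and 5.24% ± 0.237 (Lb) in LC boars (SD, n = 3 each). The miR-27 rows made up most of it, going from 6.93 to 5.34% with age in HZ boars and from 6.37 to 4% in LC boars. The share of the miR-24 rows went from 0.809% in Ha to 1.1% in Hb and from 0.777% in La to 0.629% in Lb.

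The first question was how the members changed between 30 and 120 days, in a breed that matures early (HZ) and in one that matures later (LC). In La vs. Lb, 11 of the 17 fell at an adjusted p under 0.05 and none rose (quasi-likelihood test of edgeR, with p-values adjusted by Benjamini-Hochberg over all rows), where 26.8% of the 1446 rows tested rose and 13.4% fell. With all 12 libraries in 1 fit 7 members and 33.0% of all rows passed in either direction, and with scaling by library size alone 8 members and 40.2%. Of the 11, 4 are 3′ extensions of other members, and with these summed in 7 members and 39.9% of all rows passed. The members' median log2 fold change was -0.53, against 0.32 over all rows. By the study's own rule (a log2 fold change beyond 1 in either direction with an unadjusted p under 0.05), which called 32.1% of the rows, 1 member was lower, miR-27-z. Among the 6 that did not pass were miR-24-x, at 0.54, and miR-24-1-5p, at 0.

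The abundant B cluster forms fell furthest among the 5 abundant forms. miR-27b-3p fell by 0.93 on the log2 scale (SE 0.104, adjusted p = 1.71e-05) and miR-23b by 0.74 (SE 0.106, adjusted p = 0.000123). Of the A cluster, miR-27a fell by 0.28 (SE 0.0955, adjusted p = 0.0351), a call lost in 9 of the 15 alternatives with a test, and miR-23a had a log2 fold change of -0.19 (SE 0.106, adjusted p = 0.169). When only library size was used for scaling, the median over all rows shifted by 0.21, ssc-miR-27b-3p was at -0.72 and ssc-miR-23b at -0.53, both still past the test, whereas ssc-miR-27a was at -0.06 and ssc-miR-23a at 0.02.

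ssc-miR-24-3p fell by 0.53 (SE 0.104, adjusted p = 0.00151), with all 3 Lb libraries below all 3 La libraries in TPM, as for 14% of all rows. With all 12 libraries in 1 fit its log2 fold change was -0.59 and it did not pass (adjusted p = 0.103). Its 5p partners did not pass: miR-24-2-5p, from the B cluster, was at -0.39 (adjusted p = 0.0956) and miR-24-1-5p, from the A cluster, at 0 (adjusted p = 0.993).

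In HZ boars most members did not pass the same test. In Ha vs. Hb, 2 of the 17 fell and none rose, where 21.3% of the 1441 rows rose and 13.0% fell. Both were 3′ extended forms, miR-23-z (log2 fold change -1.96, SE 0.34, adjusted p = 0.000656) and miR-23-y (log2 fold change -1.28, SE 0.305, adjusted p = 0.00532), and both were also lower by the study's rule, which called 39.6% of the rows. Without Hb replicates 1 and 2 in turn, miR-23-z was at -2.32 and -1.64 and miR-23-y at -1.22 and -1.05, all past the test. With all 12 libraries in 1 fit 4 members and 42.3% of all rows passed, and without Hb replicate 1 4 members and 38.0%. With the 3′ extended forms summed in, no member passed, beside 34.3% of all rows, and miR-23b was at -0.32 (adjusted p = 0.287). The members' median was -0.11, against 0.32 over all rows.

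ssc-miR-27b-3p did not pass in Ha vs. Hb, with a log2 fold change of -0.26 (SE 0.235, adjusted p = 0.406), although every Hb library lay below every Ha library in TPM, as for 20.7% of all rows. Its value was -0.46 (adjusted p = 0.0143) without Hb replicate 2 and 0.02 (adjusted p = 0.935) without Hb replicate 1, so it turned on which libraries were kept. ssc-miR-24-3p was at 0.67 (SE 0.312, adjusted p = 0.111), and passed at the same value with all 12 libraries in 1 fit (adjusted p = 0.0475). It was at 1.04 (adjusted p = 0.00854) without Hb replicate 1 and 0.17 (adjusted p = 0.461) without Hb replicate 2. miR-23b was at 0.05, miR-23a at 0.31 and miR-27a at 0.36, none past the test. ssc-miR-27a was at 0.73 (adjusted p = 0.0348) without Hb replicate 1 and -0.02 (adjusted p = 0.943) without Hb replicate 2.

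**Figure D2:**
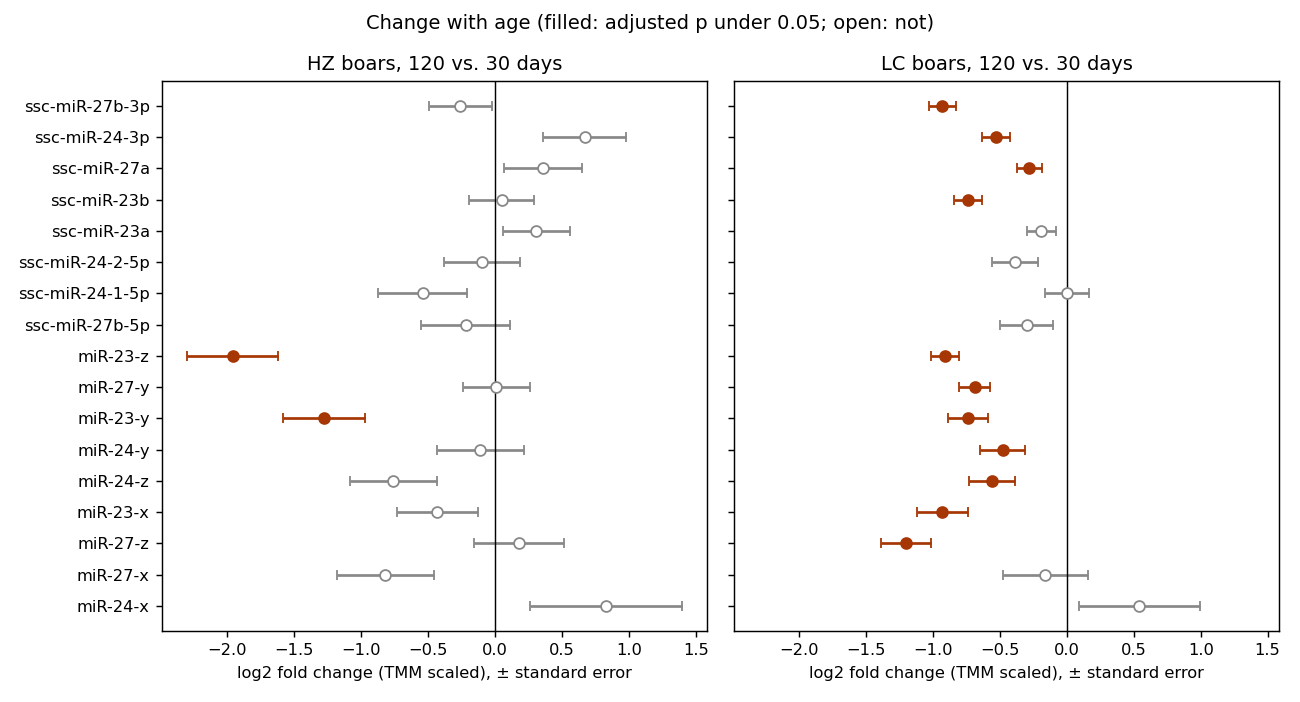
Log2 fold change from 30 to 120 days of each of the 17 rows in HZ (Ha vs. Hb) and LC (La vs. Lb) boars, with its standard error, where filled points passed at an adjusted p under 0.05. In LC boars 11 rows lie below 0 and pass, and in HZ boars miR-23-z (-1.96) and miR-23-y (-1.28) pass.

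Whether the change with age differed between the breeds was tested as an interaction over all 12 libraries. No member passed by edgeR's quasi-likelihood test, where 0.758% of the 1452 rows were higher and 0.620% lower. At an unadjusted p under 0.05 there were 7 members, 1 higher and 6 lower, beside 13.4% and 7.78% of all rows. DESeq2's Wald test passed 3 members, and 6.69% of all rows. The largest difference was that of miR-27-z, at -1.43 (SE 0.356, unadjusted p = 0.00102, adjusted p = 0.0547), which passed with RLE scaling, DESeq2, filterByExpr and without Hb replicate 1, and was at -1.09 (adjusted p = 0.0564) without Hb replicate 2. miR-24-3p had opposite signs in the breeds and a difference of -1.25 (SE 0.367, unadjusted p = 0.00362, adjusted p = 0.0762). miR-23b had a difference of -0.85 (SE 0.246, adjusted p = 0.074) and miR-27b-3p one of -0.72 (SE 0.248, adjusted p = 0.113). Without Hb replicate 1, 8 members and 11.6% of all rows passed, among them ssc-miR-24-3p (-1.49, adjusted p = 0.00679), ssc-miR-23b (-1.01, adjusted p = 0.00466) and ssc-miR-27b-3p (-0.88, adjusted p = 0.0117). Without Hb replicate 2, ssc-miR-24-3p was at -0.66 (adjusted p = 0.0781), ssc-miR-23b at -0.7 (adjusted p = 0.0918) and ssc-miR-27b-3p at -0.43 (adjusted p = 0.144).

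The second question was how the breeds differed at one age. At 30 days, 1 member of 17 differed: miR-23-z was lower in La than in Ha by 0.35 on the log2 scale (SE 0.101, adjusted p = 0.0369), a call lost in 7 of the 14 alternatives with a test. Over all 1278 rows of Ha vs. La, 5.01% were higher and 6.34% lower, and 9.47% were called by the study's rule. The other 16 had log2 fold changes from -0.24 to 0.48, and the abundant forms from -0.04 (miR-27b-3p) to 0.23 (miR-23a).

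At 120 days, none of the 17 members passed edgeR's quasi-likelihood test in Hb vs. Lb, where 1.11% of the 1444 rows were higher and 2.15% lower. At an unadjusted p under 0.05, 5 members were lower in Lb, beside 10.9% of all rows. DESeq2's Wald test passed 3 members and 7.48% of all rows, and edgeR's exact test 2 members and 8.03%. By the study's rule, which called 16.8% of the rows, 2 were lower: miR-24-3p (log2 fold change -1.3, SE 0.377, adjusted p = 0.0788) and miR-27-z (log2 fold change -1.32, SE 0.361, adjusted p = 0.0657). miR-23b was at -0.9 (SE 0.272, adjusted p = 0.0878), miR-27b-3p at -0.83 (SE 0.315, adjusted p = 0.145), miR-27a at -0.63 and miR-23a at -0.38. Without Hb replicate 1, 6 members and 10.5% of all rows passed, among them ssc-miR-24-3p at -1.57 (adjusted p = 0.0137) and ssc-miR-27b-3p at -1.02 (adjusted p = 0.0378). Without Hb replicate 2 they were at -0.65 (adjusted p = 0.057) and -0.49 (adjusted p = 0.147). The other 4 were ssc-miR-23b (-1.09, adjusted p = 0.0132), miR-27-z (-1.55, adjusted p = 0.0142), miR-24-y (-1.03, adjusted p = 0.035) and miR-23-z, which was higher in Lb (1.07, adjusted p = 0.0198). Without Hb replicate 2 these 4 were at -0.72, -0.93, -0.39 and 0.39, and none passed. Scaling by library size alone shifted the median over all rows by 0.25 and put miR-24-3p at -0.82 and miR-27b-3p at -0.44.

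The comparisons share groups, so their counts are not independent of each other. The balance of the clusters was therefore also measured inside each library, as a ratio of raw counts (0.5 added to each), which needs no scaling between libraries. Age was tested by an exact two-sided permutation test with the labels permuted within breed, and breed with the labels permuted within age, with 400 arrangements and a smallest possible p of 0.005. The 6 tests were adjusted together.

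The ratio of miR-23a to miR-23b rose with age and was higher in LC boars. It was 0.849, 0.789 and 0.653 in Ha, 0.91, 0.88 and 0.944 in Hb, 0.869, 0.882 and 0.913 in La, and 1.47, 1.29 and 1.16 in Lb. miR-23b was thus the more abundant form in the other 9 libraries and miR-23a in the 3 Lb libraries. With the 3′ extended forms summed in, the Lb ratios were 1.14, 1.02 and 0.907, so miR-23b was again the more abundant in 1 of them, and the other 9 libraries lay between 0.463 and 0.881. The age difference was 0.41 on the log2 scale (0.26 in HZ and 0.55 in LC boars; exact p = 0.005, adjusted p = 0.01). The breed difference was 0.37 (0.23 at 30 days and 0.51 at 120 days; exact p = 0.005, adjusted p = 0.01).

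The ratio of miR-27a to miR-27b-3p also rose with age, in both breeds. It was 0.0541, 0.0531 and 0.0407 in Ha, 0.0622, 0.0867 and 0.0703 in Hb, 0.0522, 0.056 and 0.058 in La, and 0.1, 0.0853 and 0.0777 in Lb. Within each breed the 120-day libraries lay above the 30-day libraries. The age difference was 0.61 on the log2 scale (0.57 in HZ and 0.66 in LC boars; exact p = 0.005, adjusted p = 0.01). The breed difference was 0.22 (exact p = 0.075, adjusted p = 0.09) and did not pass.

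The miR-24 5p forms rest on 65 to 525 counts a library, far fewer than the other pairs. The ratio of miR-24-2-5p (B cluster) to miR-24-1-5p (A cluster) was 1.44, 1.42 and 1.78 in Ha, 1.57, 3.02 and 2.06 in Hb, 1.57, 1.25 and 1.43 in La, and 1.01, 1.07 and 1.16 in Lb. The B form was the more abundant in all 12 libraries, and the highest ratio was that of Hb replicate 2. Age gave a mean difference of 0.04 with opposite signs in the breeds (0.47 in HZ and -0.39 in LC boars; exact p = 0.835). The ratio was lower in LC boars by 0.55 (0.12 lower at 30 days and 0.98 lower at 120 days; exact p = 0.025, adjusted p = 0.0375), a call lost without any one of 5 libraries.

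**Figure D3:**
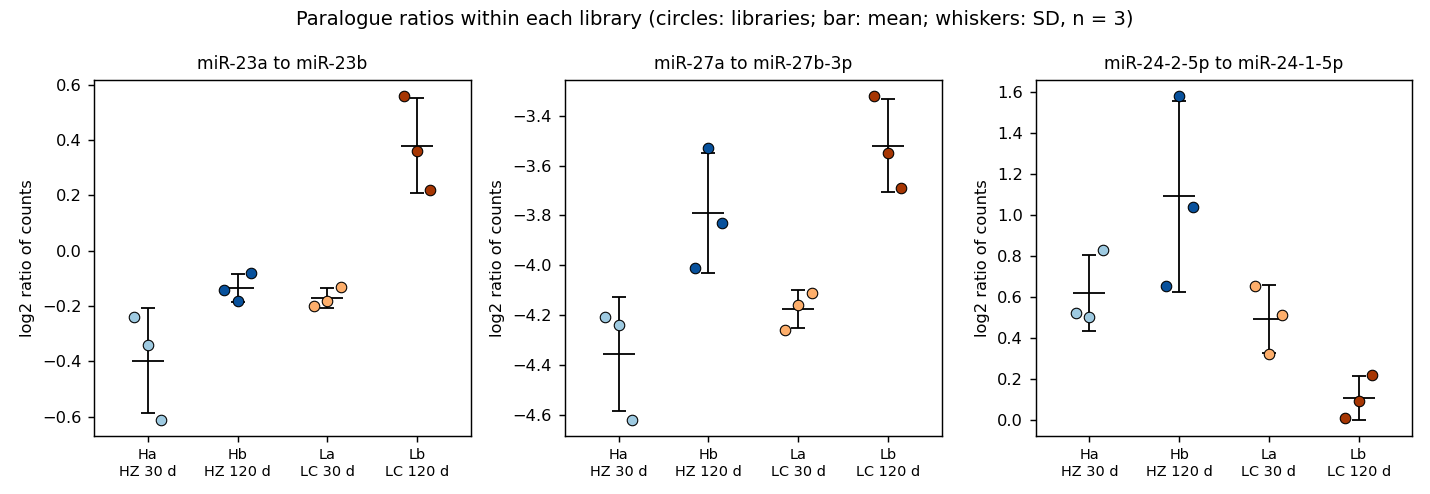
Log2 ratio of counts of miR-23a to miR-23b, miR-27a to miR-27b-3p and miR-24-2-5p to miR-24-1-5p, with a circle per library, a bar at the mean and whiskers of 1 SD in each group of 3. The ratio of miR-23a to miR-23b is above 0 only in Lb, and that of miR-27a to miR-27b-3p lies between -4.62 and -3.32.

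Members of 1 cluster did not stand in equal numbers. In the B cluster, miR-27b-3p had 18.6 ± 1.72 (Ha), 14.9 ± 2.34 (Hb), 18 ± 0.968 (La) and 15.8 ± 0.789 (Lb) counts per count of miR-23b (SD, n = 3 each). With the 3′ extended forms summed in, the group means lay between 12.2 and 13.6. In the A cluster, miR-27a had 1.06 to 1.22 counts per count of miR-23a in the group means, with the widest range in Hb (0.939 to 1.7). Counts of different sequences also differ through ligation and amplification, so these ratios are of reads, not of molecules.

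The 3p arm held nearly all of the reads of each hairpin for which both arms are listed. miR-27b-3p had from 1751 (Lb) to 4531 (Ha) counts per count of miR-27b-5p, and miR-24-3p from 99.1 (Lb) to 434 (Hb) per summed count of the pair of 5p forms. miR-27b-5p itself lay between 10.7 and 22.2 TPM in all libraries and passed in no comparison.

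The 3′ extended forms behaved differently from one member to the next. After the values had been seen, the share of each pair's counts that fell in the longer form was computed for the 4 pairs and tested in the same way as the ratios, with adjustment over 8 tests. For miR-23b the share, held by miR-23-z, was 32.2, 28.2 and 32.4% in Ha, 18.6, 5.24 and 8.06% in Hb, 27.5, 24.5 and 25.9% in La, and 24.7, 23 and 24% in Lb. All 3 Hb libraries lay below all other libraries, and La and Lb overlapped. The age difference was -11.2 percentage points (-20.3 in HZ and -2.12 in LC boars; exact p = 0.01, adjusted p = 0.02). It was -13.2 without Hb replicate 1 and -9.89 without Hb replicate 2, and passed in both.

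For miR-23a the share, held by miR-23-y, was 4.06, 3.21 and 4.69% in Ha, 1.85, 0.846 and 1.44% in Hb, 3.82, 3.45 and 3.65% in La, and 2.31, 2.73 and 2.52% in Lb. It was lower at 120 days in both breeds, by 1.86 percentage points on average (exact p = 0.005, adjusted p = 0.02). By breed, neither miR-23 share passed this test, which averages over the ages. The miR-23b share differed (LC minus HZ) by -4.98 points at 30 days and by 13.2 points at 120 days, with no overlap at either age (mean 4.13, exact p = 0.325). The miR-23a share differed by -0.345 at 30 days and by 1.14 at 120 days, where every Lb library lay above every Hb library (mean 0.398, exact p = 0.275, adjusted p = 0.314). The ages alone were not tested, and how often other pairs separated by breed is given below.

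miR-27b-3p went the other way. Its longer form, miR-27-y, held 1.12, 1.07 and 1% in Ha, 1.27, 1.16 and 1.45% in Hb, 1.28, 1.24 and 1.27% in La, and 1.5, 1.52 and 1.42% in Lb. The share was higher at 120 days by 0.222 percentage points (exact p = 0.005, adjusted p = 0.02) and higher in LC boars by 0.195 (exact p = 0.01, adjusted p = 0.02). miR-24-z held 0.0689 to 0.553% of the miR-24-3p pair, lowest in Hb (0.232, 0.0689 and 0.272%). Its age difference was -0.121 percentage points (exact p = 0.065, adjusted p = 0.0867) and its breed difference 0.157 (exact p = 0.02, adjusted p = 0.032), a call lost without any one of 4 libraries.

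Shifts of this kind were also seen in other rows. In all, 57 pairs of a pig miRNA and a listed 3′ extension of 1 to 3 bases had at least 1000 summed counts in every library, and they include the 4 pairs described here. The longer form's share was lower in every Hb than in every Ha library for 33.3% of the 57, and for 3 of these 4. It was lower in every Lb than in every La library for 19.3% of the 57, and for 1 of these 4, miR-23a. The share was higher in every 120-day library for 14.0% in HZ and 31.6% in LC boars, beside 1 of these 4, miR-27b-3p, in each breed. By breed, it was lower in every La than in every Ha library for 15.8% of the 57, among them miR-23b. It was higher for 5.26%, among them miR-27b-3p. In every Lb library it was higher than in every Hb library for 33.3%, among them miR-23b, miR-23a and miR-24-3p, and lower for 7.02%. The study's methods give pig miRNAs priority over unprefixed ones when a tag is annotated, but the sources used here do not give how a tag longer than the pig sequence was matched.

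**Figure D4:**
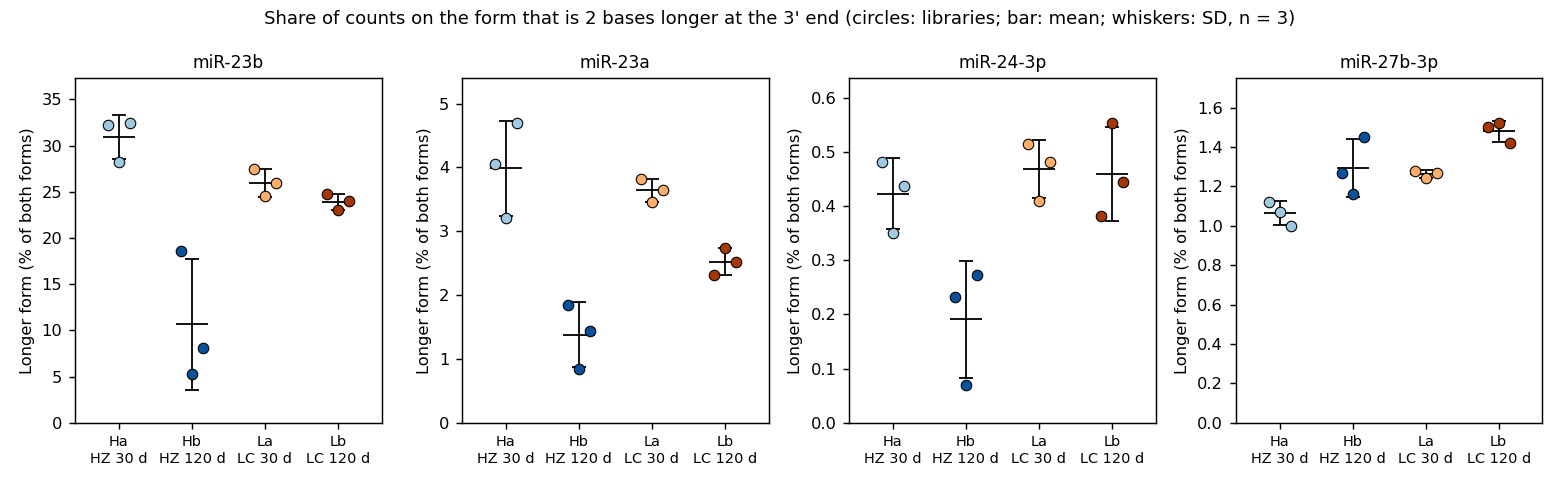
Percent of the counts of each pair (the form named and its 3′ extension of 2 bases) that fell in the longer form, with a circle per library, a bar at the mean and whiskers of 1 SD in each group of 3. For miR-23b the mean goes from 31% (Ha) to 10.6% (Hb) and from 26% (La) to 23.9% (Lb).

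In La vs. Lb the longer forms miR-23-z, miR-27-y, miR-23-y and miR-24-z fell by 0.91, 0.69, 0.74 and 0.56 on the log2 scale, and the call of miR-24-z was lost in 4 of 14 alternatives. miR-27-z, which differs from miR-27b-3p by G20T and C21T, was at 18, 19.4 and 17.5 TPM in La and 9.14, 9.23 and 8.72 TPM in Lb, and fell by 1.2 (SE 0.186, adjusted p = 0.000249). In HZ boars it was at 17.8, 15 and 18.7 TPM in Ha and 16.3, 18.1 and 17.2 TPM in Hb, which overlap. miR-24-y, which differs from miR-24-3p by G22C over their 22 shared bases, fell by 0.48 in La vs. Lb (adjusted p = 0.0389), a call lost in 7 alternatives.

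miR-23-x, a 5p arm, was at 22.3, 21.9 and 24.8 TPM in La and 11.9, 13.5 and 15.7 TPM in Lb, and fell by 0.93 (SE 0.193, adjusted p = 0.00221). Its sequence is also listed under another name, miR-10174-x, with 2665 counts over the 12 libraries against 2676 and at most 2 counts apart in any library, so the 2 rows are not separate measurements. miR-27-x, the 5p form of the miR-27a kind, was at 3.27 to 16 TPM, and miR-24-x at 0.545 to 1.79 TPM (5 to 27 counts). Neither passed in any of the 4 comparisons.

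Across the 12 libraries, log2 levels of the B cluster forms miR-27b-3p and miR-23b went together (Pearson's r = 0.859), and those of the A cluster forms miR-27a and miR-23a had r = 0.0524. For miR-24-3p, r was 0.718 with miR-27a and 0.325 with miR-27b-3p. Hb replicate 2 had the highest miR-27a (3700 TPM) and miR-24-3p (12344 TPM) of the 12 libraries, but a miR-23a of only 2172 TPM. The values of r with miR-27a lean on this library and were not computed without it, so these contrasts are not settled. These values are descriptions: the libraries fall into 2 ages, share a scale and are not independent points.

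Among 422 other rows with a mean of at least 10 TPM, those most like miR-27b-3p were miR-10174-x (r = 0.947), ssc-miR-423-5p (0.933) and miR-214-y (0.886). The first of these carries the sequence of miR-23-x. For miR-23b they were miR-10174-x (0.816), miR-26-x (0.793) and ssc-miR-30e-3p (0.787), and for miR-23a let-7-z (0.802), miR-107-y (0.694) and ssc-miR-4334-3p (0.648). For miR-24-3p they were ssc-miR-1468 (0.833), miR-101-y (0.791) and miR-320-z (0.775), and for miR-27a miR-222-y (0.75), miR-101-y (0.735) and ssc-miR-99a-5p (0.712). Within the 6 libraries of 30 days several of these were weak or negative, such as -0.61 for miR-214-y with miR-27b-3p.

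Cell type markers moved with age beside the members. In bulk tissue, fewer cells of a type and less RNA per cell cannot be told apart. The endothelial pair miR-126-3p and miR-126-5p summed to 12482 to 15560 TPM in Ha, 11040 to 11910 TPM in Hb, 11485 to 13103 TPM in La and 8529 to 10997 TPM in Lb. In La vs. Lb both fell (miR-126-3p by 0.68, adjusted p = 0.00224, and miR-126-5p by 0.36, adjusted p = 0.0227), whereas neither passed between the HZ groups (-0.33 and 0.07). The 6 mesenchymal rows of 7 sought, miR-199 and miR-214, summed to 74528 to 77508 TPM in Ha, 32107 to 43720 TPM in Hb, 84338 to 93660 TPM in La and 47275 to 55149 TPM in Lb. Of these, 6 fell with age in LC and 3 in HZ boars. Among them, miR-199a-3p and miR-199b-3p are nearly the same measurement, at 7593 and 7592 TPM in Ha and with the same log2 fold change (-0.92 in La vs. Lb). All 4 smooth muscle rows, miR-143 and miR-145, rose with age in LC boars and 2 of them in HZ boars. The 3 germ cell rows rose in both breeds, to 2590 to 13240 TPM in Hb, a wide range, and 11295 to 13924 TPM in Lb. The 4 striated muscle rows rose in LC boars and 3 of them in HZ boars, and of the 7 blood rows 4 fell in LC and 2 in HZ boars. Markers also differed by breed. At 30 days, 4 mesenchymal and 3 blood rows passed as higher in La. Lower in La were 2 germ cell rows and 1 row each of blood, smooth muscle and striated muscle. At 120 days, 1 mesenchymal and 1 striated muscle row passed as higher in Lb. The part of these markers in the members' changes was not tested.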

How the data were processed

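Small RNA was sequenced from 12 pig testis libraries (3 each of Ha, Hb, La and Lb). The authors trimmed reads with fastp, removed other non-coding RNAs, exons, introns and repeats, matched tags to miRBase and predicted further miRNAs with miRDeep2. The deposited counts are whole tags per listed miRNA and were not normalized. The deposited TPM divides counts by a library total larger than the sum of the listed counts and writes a count of 0 as 0.01. In annotation, pig miRNAs had priority over unprefixed ones. The mismatches allowed were not given in the sources used here. The depth per library was 6520197 to 16874633 counts. PCR reads carry no molecular identifiers.

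Each comparison was fitted with edgeR 4.0.16 (glmQLFit and glmQLFTest, TMM, R 4.3.3) on the counts of rows with at least 1 count in its 6 libraries, with Benjamini-Hochberg adjustment over all rows, and the interaction on all 12 libraries. "Rose", "fell" and "passed" mean an adjusted p under 0.05 for any size of change. Within-library ratios and shares were tested by exact permutation. All 17 members are described, and 16 of them averaged 10 TPM or more in some group. The 3 rows most like each abundant form were found by Pearson correlation of log2(TPM + 1). The alternatives were RLE or library-size scaling, DESeq2 1.42.0, edgeR's exact test, filterByExpr, 1 fit of all libraries, merged identical sequences, summed 3′ variants, fold changes of mean TPM, a replicate block and each library left out. Members, lists and tests were chosen with earlier results of these data known. Positions were taken from RefSeq genes of Sscrofa11.1 by symbol, with all 6 hairpins found.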

Additional observations from a re-analysis of the deposited data

Results flagged for a closer look

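The TPM of ssc-miR-24-3p was higher at 120 days in HZ boars and lower in LC boars. In HZ boars its TPM was 6653 to 7740 at 30 days and 7978 to 12344 at 120 days, and in LC boars 6217 to 7366 at 30 days and 4830 to 5741 at 120 days, with no overlap in either breed. Every 120-day library was higher for 23% of all rows in HZ boars, and lower for 14% in LC boars. TPM does not use the TMM factors, which were 1.2 for Hb replicate 1 and 0.694 for Hb replicate 2. The log2 fold change with age passed in LC boars (-0.53, adjusted p = 0.00151) and not in HZ boars (0.67, adjusted p = 0.111), where it was 0.17 (adjusted p = 0.461) without Hb replicate 2 and 1.04 (adjusted p = 0.00854) without Hb replicate 1. With all 12 libraries in 1 fit these calls were the other way round, with 0.67 in HZ boars (adjusted p = 0.0475) and -0.59 in LC boars (adjusted p = 0.103). The difference between the age effects was tested as an interaction and was -1.25 on the log2 scale (edgeR's quasi-likelihood test, unadjusted p = 0.00362, adjusted p = 0.0762), which missed the threshold. It lay between -0.66 (without Hb replicate 2) and -1.49 (without Hb replicate 1) over the alternatives, and passed with DESeq2 (-1.39, adjusted p = 0.0471) and without Hb replicate 1 (adjusted p = 0.00679). Whether Hb replicate 2 stands for its group was not tested.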

How the results depend on the processing

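The number of members that passed depended on the setting, and the cause was not tested. With all 12 libraries in 1 fit, 4 passed with age in HZ boars (Ha vs. Hb) and 7 in LC boars (La vs. Lb), and by breed 0 passed at 30 days (Ha vs. La) and 4 at 120 days (Hb vs. Lb), beside 42.3, 33, 2.27 and 12.3% of all rows. With the 3′ variants summed, which leaves fewer rows, 0 passed with age in HZ boars, 7 in LC boars and 0 by breed at 30 days, beside 34.3, 39.9 and 11.4% of all rows. In Hb vs. Lb 3 passed with DESeq2 (7.48% of all rows) and 2 with edgeR's exact test (8.03%), which gave 0 in Ha vs. La (11.9%). In the interaction 3 passed with DESeq2, 1 with RLE scaling and 1 with filterByExpr, beside 6.69, 2.48 and 7.25% of all rows. When each library was left out in turn, 2 to 4 passed in Ha vs. Hb, 8 to 14 in La vs. Lb (8 also with library size alone), 0 to 1 in Ha vs. La, 0 to 6 in Hb vs. Lb and 0 to 8 in the interaction, beside 24 to 39.5%, 31.2 to 42.8%, 6.54 to 20.5%, 0.833 to 10.5% and 0 to 11.6% of all rows, with the upper counts of 4, 6 and 8 without Hb replicate 1 and that of 14 without Lb replicate 2.

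Replicate numbers did not pair the libraries (correlations of deviations from -0.123 to 0.129). With the replicate number as a block, 0 passed by breed at 30 days and 2 at 120 days, beside 11.4 and 9.56% of all rows. The block changes only the arrangements permuted and not the values, that is the ratio differences of miR-23a to miR-23b with age (0.41) and breed (0.37), of miR-27a to miR-27b-3p with age (0.61) and of the miR-24 5p forms with breed (-0.55), and the share differences of miR-23b (-11.2), miR-23a (-1.86) and miR-27b-3p (0.222) with age and of miR-27b-3p (0.195) and miR-24-3p (0.157) with breed. None passed after adjustment (adjusted p from 0.0625 to 0.1). The smallest unadjusted p with the block is 0.0312, and the breed differences of the miR-24 5p ratio and the miR-27b-3p share had 0.0625.

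Leaving out each library in turn, the breed difference of the miR-24 5p ratio was -0.66 to -0.43 and lost its call without Ha replicate 3, La replicate 2 or any Lb library. That of miR-27a to miR-27b-3p was 0.16 to 0.29 and passed without Hb replicate 2 (adjusted p = 0.036). The breed difference of the miR-24-3p share was 0.126 to 0.177, lost without Ha replicate 2, Hb replicate 2, La replicate 1 or Lb replicate 2, and its age difference was -0.144 to -0.0903, passing without Lb replicate 2. Of 1324 alternative values of the members' log2 fold changes, 40 changed sign, none of them a value that passed, 28 lost and 39 gained a call. miR-24-x rests on 5 to 27 counts a library.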
